A study of Homo sapiens with 18 samples.

Results

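The interferon response and MHC class I genes were examined in NCI-H2052 (H2052) cells, a pleural mesothelioma cell line with mutations in the Hippo pathway genes NF2 and LATS2. The set was defined by 46 gene symbols, and all 46 had a row among the 30954 gene identifiers of the H2052 RNA sequencing count table. Parental cells and NF1 mutant cells were each grown in RPMI with 10% FBS and received 1 µM VT107, an inhibitor of the palmitoylation of all TEAD transcription factors, or an equal volume of DMSO for 24 h, which gave 4 groups of 3 libraries. The NF1 mutant cells were made by CRISPR/Cas9 and selected with puromycin, and the labels do not say whether the parental cells carried Cas9 or a control guide. Both genotypes therefore share the NF2 and LATS2 mutations, and nothing in the labels describes the NF1 mutant cells as a single clone. The headings of the parental and the NF1 mutant libraries carry different prefixes, so the genotype and whatever those prefixes mark cannot be told apart.

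Interferons are secreted proteins that bind paired receptors on the cell surface and switch on JAK kinases. These kinases phosphorylate STAT proteins, among them STAT2, which joins IRF9 to form a complex that binds interferon-stimulated response elements (ISREs), whereas interferon gamma acts mainly through gamma-activated sites (GAS). The induced genes encode antiviral proteins and much of the MHC class I pathway, in which peptides cut by the immunoproteasome are carried by the TAP transporter onto class I heavy chains paired with B2M and shown to T cells.

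Because many members share these control elements, the 250 bases before their RefSeq start sites (build GRCh38.p14) were searched on both strands for an ISRE-type motif, made of 2 copies of TTTC with any 2 bases between them, and a GAS-type motif, TTCNNNGAA. A start site was matched for 36 of the 46 members. At least 1 ISRE-type match was found before 21 of these 36 (58.3%), against 3.02% of all 35116 windows, and a GAS-type match before 8 (22.2%) against 6.57%, and overlapping matches were counted separately. CATTCC, the core bound by TEAD proteins, was found before 5 of the 36 (13.9%) against 11.9% of all windows. A match is a description of letters and not a bound site. Below are the windows before 2 members that were high in the number 3 libraries of parental cells (ISG15 and IFIT1), 2 that fell between genotypes (GBP1 and B2M) and 2 that rose (IFI35 and PSMB9), with ISRE-type and GAS-type matches in capitals.
ISG15 (chr1:1013247-1013496, plus strand): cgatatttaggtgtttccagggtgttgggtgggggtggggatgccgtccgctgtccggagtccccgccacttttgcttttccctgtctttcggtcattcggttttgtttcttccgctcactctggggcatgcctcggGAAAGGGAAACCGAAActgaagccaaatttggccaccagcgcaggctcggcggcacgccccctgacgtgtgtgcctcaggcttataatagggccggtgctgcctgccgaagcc
IFIT1 (chr10:89392373-89392622, plus strand): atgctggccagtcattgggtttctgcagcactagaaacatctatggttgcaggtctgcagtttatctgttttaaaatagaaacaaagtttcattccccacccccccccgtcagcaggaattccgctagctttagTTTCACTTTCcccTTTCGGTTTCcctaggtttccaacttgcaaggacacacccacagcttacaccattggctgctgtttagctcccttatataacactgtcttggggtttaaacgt
GBP1 (chr1:89065209-89065458, minus strand): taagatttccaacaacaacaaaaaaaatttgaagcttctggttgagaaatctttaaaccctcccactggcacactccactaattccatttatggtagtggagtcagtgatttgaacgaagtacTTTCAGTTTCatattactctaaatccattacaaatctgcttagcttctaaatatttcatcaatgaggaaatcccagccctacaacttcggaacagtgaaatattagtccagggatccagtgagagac
B2M (chr15:44711267-44711516, plus strand): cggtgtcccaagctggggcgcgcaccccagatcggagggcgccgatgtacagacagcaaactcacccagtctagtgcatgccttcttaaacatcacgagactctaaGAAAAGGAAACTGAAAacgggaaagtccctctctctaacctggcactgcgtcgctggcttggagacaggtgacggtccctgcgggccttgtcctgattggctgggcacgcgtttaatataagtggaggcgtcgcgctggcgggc
IFI35 (chr17:43006534-43006783, plus strand): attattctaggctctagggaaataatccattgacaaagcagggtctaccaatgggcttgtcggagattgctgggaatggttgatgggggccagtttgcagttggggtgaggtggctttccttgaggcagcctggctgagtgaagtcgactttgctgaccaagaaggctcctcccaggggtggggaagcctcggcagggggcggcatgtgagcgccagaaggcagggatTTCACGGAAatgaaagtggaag
PSMB9 (chr6:32853942-32854191, plus strand): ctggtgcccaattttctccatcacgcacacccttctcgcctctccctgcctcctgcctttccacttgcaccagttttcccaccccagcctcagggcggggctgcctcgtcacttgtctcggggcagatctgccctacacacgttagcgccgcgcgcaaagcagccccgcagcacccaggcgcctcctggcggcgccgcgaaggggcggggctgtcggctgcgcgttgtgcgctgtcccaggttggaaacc

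ISG15 and B2M each held a pair of overlapping ISRE-type matches, IFIT1 a pair that did not overlap and GBP1 a single match. IFI35 held no ISRE-type match and 1 GAS-type match, 22 bases before its start. The window before PSMB9, an immunoproteasome subunit, held neither motif. Its start lies 488 bases from that of TAP1, a subunit of the peptide transporter that is read from the opposite strand, and the window before TAP1 held 2 ISRE-type matches.

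**Figure D1:**
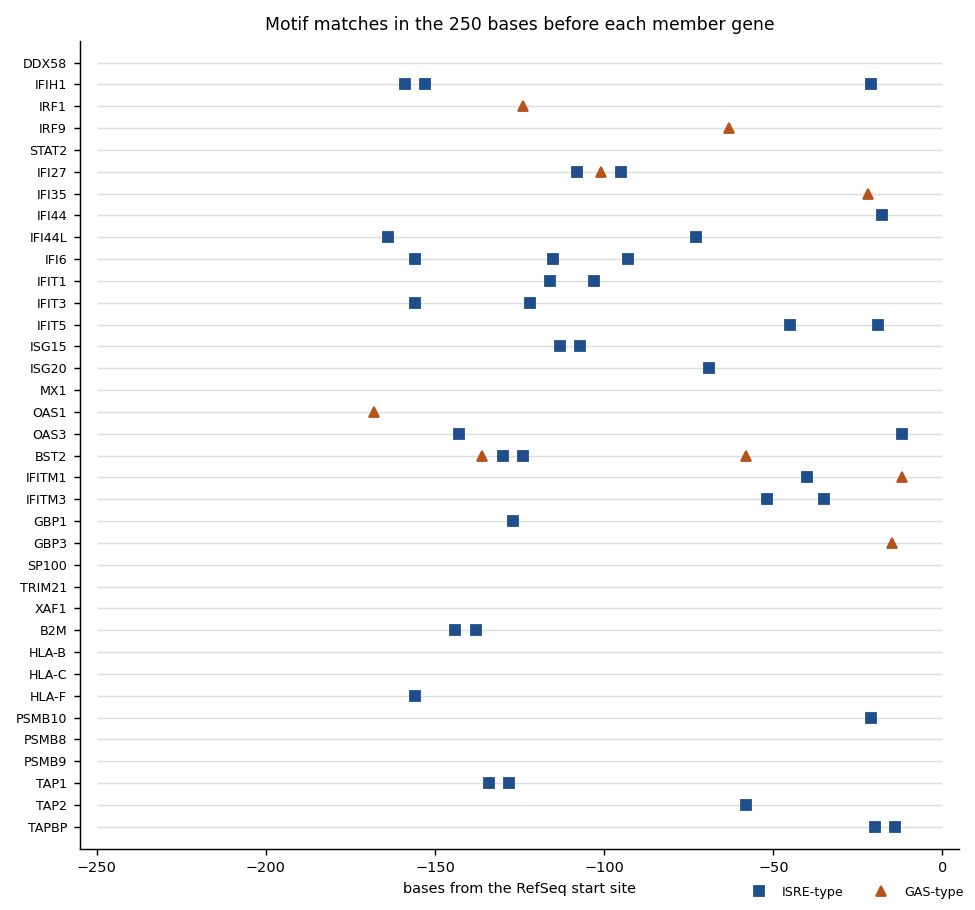
Positions of ISRE-type (squares) and GAS-type (triangles) matches in the 250 bases before the RefSeq start site of 36 members, with bases from the start site on the x axis and members ordered by role on the y axis. Of the 36 windows, 21 hold an ISRE-type match and 8 a GAS-type match.

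The libraries held between 10950284 and 13418485 counts in parental cells and between 3285363 and 5489092 in NF1 mutant cells, so low members were measured with fewer counts in the mutant. NF1 itself, the gene that was targeted, had 27.2 to 70.0 CPM (reads of the gene scaled to the total count of its library) in the 6 parental libraries and 6.72 to 18.5 CPM in the 6 NF1 mutant libraries, without overlap. The summed level of 10 YAP and TAZ target genes was 1837 to 1874 CPM in parental cells in DMSO and 682 to 883 CPM under VT107, and 1335 to 1620 against 597 to 760.2 CPM in NF1 mutant cells, so the drug groups did not overlap in either genotype, although 0 of the 10 passed edgeR's adjusted threshold in parental cells. Of 13 mesothelial markers, MSLN, WT1, VIM and the keratins KRT8, KRT18 and KRT19 were detected in every library, while KRT5 and HAS1 were at or near 0. Values of the remaining markers, CALB2, UPK3B, LRRN4, PDPN and BNC1, are not given here, so the list is described only in part. A set of 3 libraries stood apart. NF1 mutant VT107 number 1 correlated with the 11 other libraries at 0.742 to 0.836 (log2 CPM, across genes), and with its own group at 0.81 to 0.834. Both number 3 libraries of parental cells correlated with their own groups at 0.922 to 0.953, against 0.986 to 0.994 between the number 1 and number 2 libraries.

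Most members were expressed in H2052 cells without added interferon. Of the 46 members, 32 reached 0.5 CPM in all 12 libraries and 14 fell below it in at least 1. BST2, a membrane protein that tethers budding viruses, had 4 counts in a single library and no count in the other 11. TAP2, the partner of TAP1 in the peptide transporter, had 4 counts in all, but a gene on the same strand that overlaps it held a mean of 461 counts per library, so the level of TAP2 is uncertain. The low members IFI44L (13 counts in all 12 libraries together), OASL (32), IFI44 (79), XAF1 (101), OAS2 (116), OAS1 (136) and IFITM1 (143) are genes known for their induction by interferon. IFITM1 lies inside the span given for IFITM2, which had a mean of 2469 counts, and IFITM1, IFITM2, IFITM3, HLA-B and HLA-C have close sequence relatives, so reads may have been shared among them. MX1 (mean of 151 counts) lies inside the span given for MX2 (mean of 23 counts) on the same strand, so the levels of both are uncertain. The strand setting of the counting is not given in the sources used here, and 18 members are overlapped by a gene on the opposite strand.

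The interferons themselves were close to absent. Of 14 interferon genes with a row, 12 or 13 had no count in a group, and all 14 together gave 7, 15, 2 and 4 counts in the parental DMSO, parental VT107, NF1 mutant DMSO and NF1 mutant VT107 groups. The receptors and JAK kinases were present in all libraries, with 9 genes summing to 221 to 377 CPM. MHC class II genes, which also respond to interferon gamma, summed to 38.9 to 80.6 CPM over 10 genes.

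Many members were higher in the number 3 libraries of parental cells than in their partners. IFIT3, an antiviral RNA-binding partner of IFIT1, had 11.0, 11.1 and 29.4 CPM in parental DMSO libraries 1, 2 and 3 and 9.74, 10.2 and 23.3 CPM under VT107. For IFI6, an interferon-induced mitochondrial protein, the values were 29.6, 31.3 and 75.6 CPM in DMSO and 36.3, 37.0 and 60.7 CPM under VT107. ISG15, a ubiquitin-like protein attached to other proteins after interferon, had 8.18, 8.20 and 17.6 CPM in DMSO and 12.5, 9.90 and 23.9 CPM under VT107. In each of these members the number 3 library was the highest of its group in both treatments. DDX58, which encodes the RNA sensor RIG-I, had 17.0, 17.4 and 35.2 CPM in DMSO and 22.9, 18.8 and 50.3 CPM under VT107. IFI27, one of the most strongly interferon-induced genes, had 57.2, 61.2 and 151 CPM in DMSO and 67.2, 91.5 and 153 CPM under VT107. Their highest values were again in number 3.

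Of the 37 members tested in parental cells, 13 (35.1%) were at least 1.5-fold higher in DMSO number 3 than in each of the other 2 libraries, against 10.8% of all 12891 genes tested, and 3 (8.11%) were at least 1.5-fold lower, against 17.4%. Under VT107 17 members (45.9%) were higher in number 3, against 17.6% of all genes, and 4 (10.8%) were lower, against 14.8%. The median member was 0.36 (log2) above the mean of numbers 1 and 2 in DMSO and 0.62 above it under VT107. The members that were lower in number 3 included SP100, a nuclear body protein, at 72.5 CPM against 113 and 110.5 CPM in DMSO and 58.6 CPM against 123 and 99.0 CPM under VT107. GBP1, an interferon-induced GTPase that coats intracellular pathogens, had 3.93 CPM in DMSO number 3 against 9.01 and 9.39 CPM. Members of low count went both ways. XAF1, an inducible cell death gene, had 5, 2 and 19 counts in DMSO and 12, 5 and 52 under VT107, and OAS2, an antiviral enzyme that makes oligoadenylates, had 3, 8 and 33 counts and 17, 6 and 41 counts. In contrast, IFIH1, which encodes the RNA sensor MDA5, had 34, 33 and 14 counts in DMSO and 36, 20 and 24 under VT107, and IFI44 had 13, 10 and 2 counts and 27, 13 and 5 counts. These are single libraries, so no test was made.

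**Figure D2:**
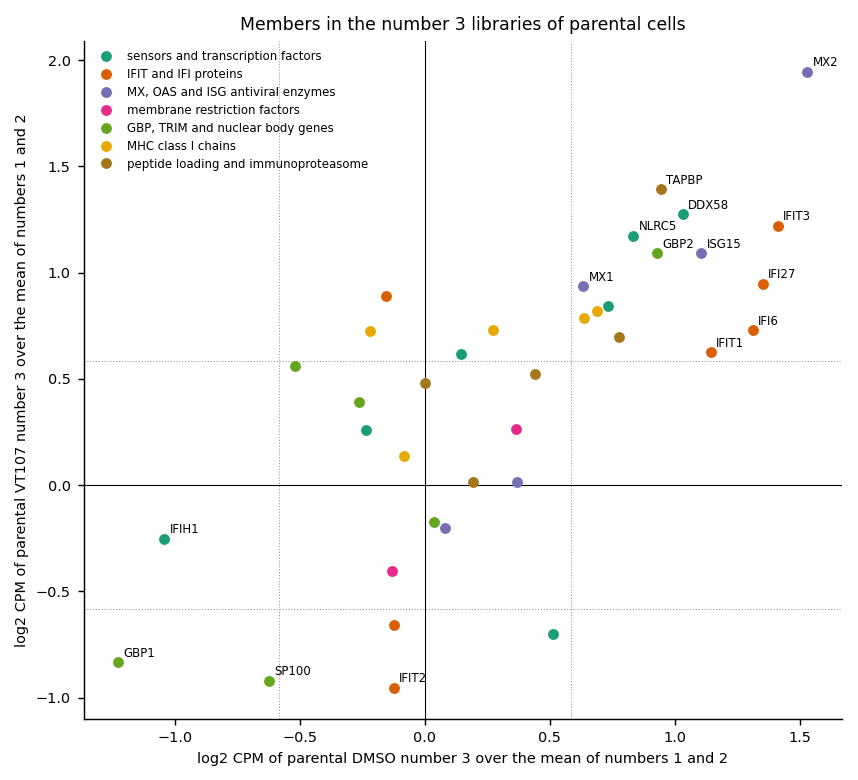
Level of 37 members in the number 3 library of parental cells relative to the mean of numbers 1 and 2 (log2 CPM ratio), for DMSO on the x axis and VT107 on the y axis, colored by role, with dotted lines at 1.5-fold. Most members lie to the upper right, with IFIT3, IFI27, IFI6, ISG15 and DDX58 among the highest, while GBP1 and SP100 lie to the lower left.

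The same libraries held more RNA of an inflammatory list and of a leukocyte marker list. The summed level of 22 NF-kB and inflammatory cytokine genes was 367, 399 and 733 CPM in parental DMSO libraries 1, 2 and 3 and 444, 356 and 984 CPM under VT107. IL1B, an inflammatory cytokine, had 27.6, 35.2 and 179.6 CPM in DMSO and 42.9, 39.9 and 245 CPM under VT107. The summed level of 16 leukocyte markers was 158, 169 and 294 CPM in DMSO and 222.5, 188 and 443 CPM under VT107, but most of it was RAC2, and PTPRC, the defining leukocyte surface protein, had 3 counts in DMSO number 3 and none in the other 11 libraries. NF1 was also lowest in number 3, at 34.4 CPM against 70.0 and 64.6 CPM in DMSO. Other lists went different ways. The 12 further MHC class I assembly genes were higher in number 3, at 3205, 3195 and 4311 CPM in DMSO and 3528, 3120 and 4951 CPM under VT107. The 10 MHC class II genes had 50.6, 48.4 and 60.1 CPM in DMSO and 53.4, 49.1 and 80.6 CPM under VT107. The 9 receptor and kinase genes had 298, 290.5 and 337 CPM in DMSO and 322, 256 and 377 CPM under VT107. The summed level of 33 further interferon-stimulated genes was 1096, 1105 and 1097 CPM in DMSO and 1180, 935 and 1239 CPM under VT107. The 8 feedback inhibitors were lower in number 3, at 113, 114 and 69.7 CPM in DMSO and 106, 94.4 and 50.5 CPM under VT107, as were 13 nucleic acid sensing genes, at 468, 487.5 and 298 CPM and at 501, 406 and 332 CPM. The 13 mesothelial markers were higher there, at 3458, 3587 and 5387 CPM in DMSO and 3956, 3027 and 5327 CPM under VT107. The part of these lists in the members' values was not tested. In bulk libraries such as these, a change in RNA per cell and a change in the number of cells that make it cannot be told apart.

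VT107 left no member past the threshold in parental cells. Of 37 members that reached 0.5 CPM in all 6 libraries, 0 passed an adjusted p of 0.05 in edgeR's quasi-likelihood test, as did 0 of 12891 genes (0%), and at an unadjusted p under 0.05 there were 0 members and 474 genes. With the replicate number as a block, edgeR called 0 of 37 members and 215 genes (1.67%). The block sets number 3 apart, but a pairing of numbers 1 and 2 is not shown. With the number 3 libraries left out, edgeR called 0 of 38 members and 44 genes (0.329%). DESeq2 called 0 members and 30 genes (0.233%). In the fit without number 3, ISG15, IFI6, IFI27, DDX58 and IRF9 had an unadjusted p under 0.05, with log2 fold changes of 0.57, 0.40, 0.57, 0.39 and 0.93, and none passed the adjustment. The share of all genes at that level is not given for this fit, so their number is not read as a result. The members' fold changes ran from −0.81 for IFIT2 to 0.87 for GBP2, with a median of 0.14 (log2) against 0.01 for all genes. By role, the medians were 0.19 for 7 sensors and transcription factors, 0.02 for 7 IFIT and IFI genes, 0.16 for 5 MHC class I chains and 0.16 for 5 peptide loading and immunoproteasome genes.

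In the blocked fit 5 members had an unadjusted p under 0.05, none of which passed the adjustment, and they are named because their values were seen. Their number is not read as a result, because the share of all genes at that level is not given for this fit. DDX58 had a log2 fold change of 0.42 (SE 0.12, adjusted p = 0.116, edgeR), with each VT107 library above the DMSO library of the same number. ISG15, TAPBP and GBP2 had 0.50, 0.31 and 0.83, and IFIT2, an antiviral RNA-binding protein, had −0.82 (SE 0.34, adjusted p = 0.256, edgeR). IFIT2 was at 2.15, 3.43 and 2.56 CPM in DMSO and 1.65, 1.85 and 0.903 CPM under VT107, so that the groups did not overlap, but these levels rest on 12 to 46 counts. TAPBP, the tapasin chaperone that holds class I chains to the transporter, was at 62.1, 58.6 and 116 CPM in DMSO and 71.7, 58.0 and 170.1 CPM under VT107, and the spread within each group was larger than the step between them.

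For other members of the core pathway the treatment groups overlapped. MX1, a GTPase that blocks viral ribonucleoproteins, had 14.2, 13.0 and 21.1 CPM in DMSO and 12.7, 11.3 and 23.0 CPM under VT107 (log2 fold change 0.01, SE 0.33). IRF1, a transcription factor of the interferon response, had 17.7, 22.5 and 22.2 CPM against 20.5, 17.5 and 29.1 CPM (0.16, SE 0.23). STAT2 had a mean of 39.6 ± 3.72 CPM (SD, n = 3) in DMSO and 38.1 ± 7.37 CPM under VT107. OAS1, which makes the oligoadenylates that activate RNase L, had 13, 11 and 18 counts in DMSO and 6, 20 and 25 counts under VT107 and was not tested, because 1 library fell below 0.5 CPM. IFITM1, a membrane protein that restricts virus entry, had 15, 18 and 35 counts in DMSO and 17, 5 and 22 counts under VT107. NLRC5, the transcriptional activator of MHC class I genes, had 3.64, 5.59 and 8.22 CPM in DMSO and 5.69, 4.18 and 11.1 CPM under VT107 (0.31, SE 0.45). The groups overlapped for all of these.

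For B2M and HLA-B the treatment groups overlapped and number 3 was the highest library in each. B2M had 1016, 975 and 1604 CPM in DMSO and 1034, 1282 and 2042 CPM under VT107 (log2 fold change 0.33, SE 0.33). HLA-B had 189, 181.5 and 224 CPM in DMSO and 184.5, 166 and 291 CPM under VT107 (0.16, SE 0.23). HLA-C had 62.2, 65.8 and 60.4 CPM in DMSO and 65.9, 68.7 and 74.1 CPM under VT107 (0.21, SE 0.15). For HLA-C alone of these chains the treated libraries all lay above the DMSO libraries, although only by a small margin. PSMB8, the immunoproteasome subunit, lay at 34.1 to 40.3 CPM in DMSO and 35.0 to 37.1 CPM under VT107, and PSMB9 had 19.1, 17.1 and 31.0 CPM in DMSO and 19.6, 20.9 and 32.8 CPM under VT107.

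In NF1 mutant cells VT107 also left no member past the threshold. Of 33 members tested, 0 were called, as were 0 of 11605 genes (0%), and at an unadjusted p under 0.05 there were 4 members and 623 genes. NF1 mutant VT107 number 1 stood apart for many members. It was at least 1.5-fold above each of the other 2 libraries of its group for 8 of 33 members (24.2%), against 18.4% of all genes, and at least 1.5-fold below them for 12 (36.4%), against 39.9%. PSMB8 had 2.32 CPM there and 28.7 and 27.7 CPM in the other libraries, while IFITM3, a membrane protein that blocks virus entry, had 1197 CPM against 458 and 431 CPM. Without that library 0 of 35 members and 198 of 12443 genes (1.59%) were called. The median member fold change was 0.28 (log2) with all libraries and 0.19 without number 1.

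The 4 members with an unadjusted p under 0.05 in the NF1 mutant cells were GBP1, DDX58, NLRC5 and TAPBP, named because their values were seen. GBP1 was at 2.19, 0.883 and 1.25 CPM in DMSO and 3.94, 2.71 and 3.65 CPM under VT107, which came from 4 to 12 counts and 12 to 17 counts a library. Its log2 fold change was 1.31 (SE 0.45, adjusted p = 0.773, edgeR) and 1.04 (SE 0.46, adjusted p = 0.318, edgeR) without VT107 number 1. DDX58 was at 10.4, 11.5 and 15.0 CPM in DMSO and 19.9, 18.1 and 18.3 CPM under VT107, with a log2 fold change of 0.73 (SE 0.29, adjusted p = 0.773, edgeR). NLRC5 was at 6.74, 6.62 and 7.77 CPM in DMSO and 16.0, 9.57 and 10.3 CPM under VT107. TAPBP was at 82.7, 76.6 and 78.5 CPM in DMSO and 289, 86.8 and 115 CPM under VT107, where the highest value came from number 1. In these 4 genes the groups did not overlap, and none passed the adjustment over all genes. The groups also did not overlap for IFIH1, which was lower under VT107, and for MX2, PSMB9, PSMB10 and IFITM3, which were higher. The share of all genes without overlap is not given, so this is not read as a result about the members.

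**Figure D3:**
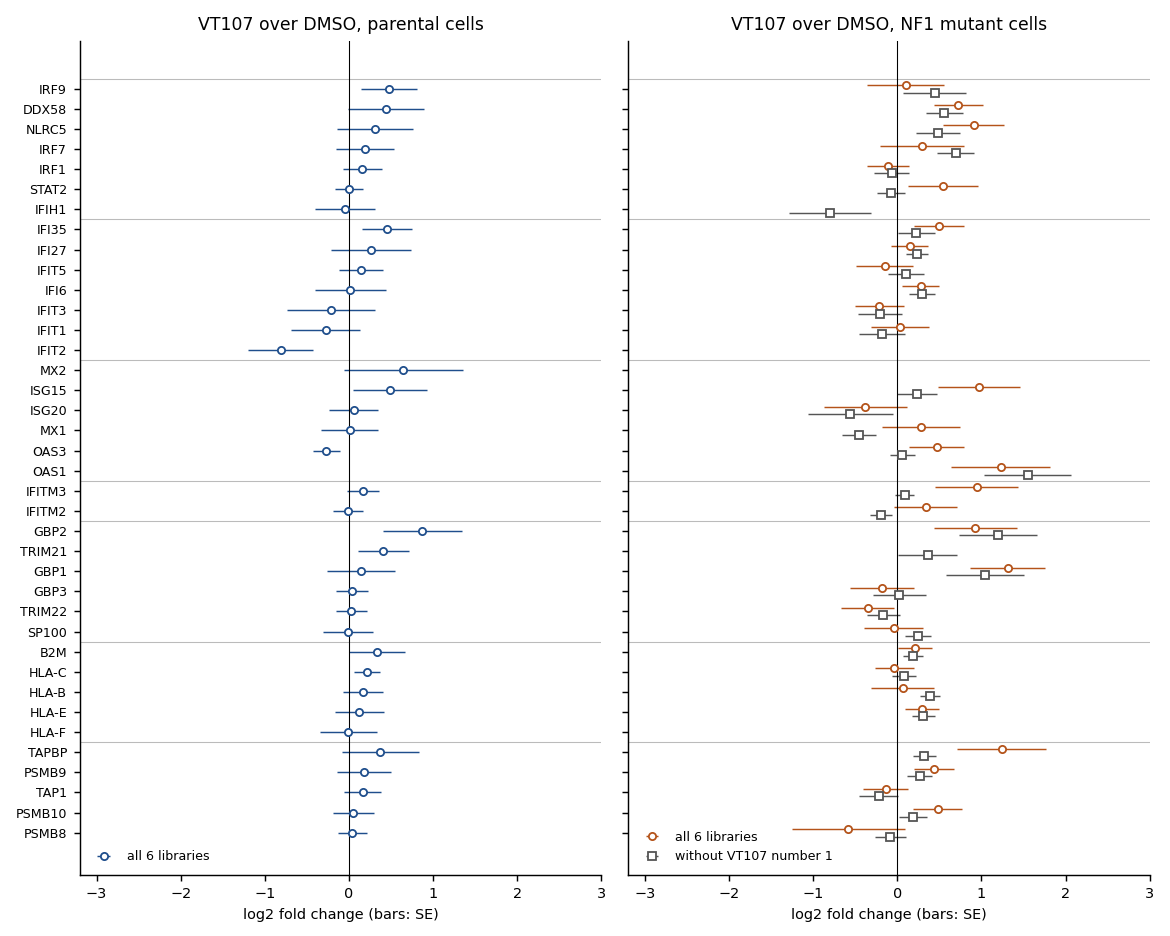
Log2 fold change of VT107 over DMSO with its SE for the members tested, in parental cells (left) and NF1 mutant cells (right, circles with all 6 libraries, squares without VT107 number 1). All markers are open because 0 members passed an adjusted p of 0.05 in any of these fits, and the values in parental cells run from −0.81 to 0.87.

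The response to VT107 did not differ detectably between the genotypes for any member. The interaction of treatment and genotype, fitted over all 12 libraries, called 0 of 32 members and 0 of 11432 genes (0%) with edgeR. At an unadjusted p under 0.05 there were 0 members and 78 genes. DESeq2 called 0 members, but its count over all genes is not given for this fit, so that 0 is not read as a result. The difference, mutant minus parental, was above 0 for 18 members and below 0 for 14, with a median of 0.09 (log2). For GBP1 the response was 0.14 in parental and 1.31 in NF1 mutant cells, and for DDX58 it was 0.44 and 0.73. Members with the smaller response in the mutant included PSMB8 (0.04 and −0.58), IRF9 (0.48 and 0.10), HLA-C (0.21 and −0.04) and B2M (0.33 and 0.21). Several of the mutant values rested on VT107 number 1. Without it the response of ISG15 in NF1 mutant cells went from 0.97 to 0.24, against 0.48 in parental cells, and its difference turned from 0.49 to −0.25. PSMB9 went from 0.44 to 0.27, against 0.18 in parental cells, and PSMB8 from −0.58 to −0.08. Over the 34 members tested without that library 15 differences were above 0 and 19 below, with a median of −0.02. For GBP1 the difference was 1.19 on the log2 scale with all libraries and 0.93 without number 1.

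Between genotypes in DMSO, 7 of 36 members tested passed the threshold (19.4%), against 3420 of 12475 genes (27.4%), a share below that of all genes. IFITM2, IFI35 and PSMB9 rose in NF1 mutant cells, and GBP1, B2M, SP100 and HLA-C fell. The median member fold change was −0.08 (log2) against −0.01 for all genes, with 16 members higher and 20 lower. At an unadjusted p under 0.05 there were 14 members (and 40.5% of all genes).

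Among the antiviral members, IFITM2, a membrane protein that restricts virus entry (hg19 chr11:307631-315272, plus strand), was at 265, 257 and 238 CPM in parental cells and 353, 427 and 389.9 CPM in NF1 mutant cells. It rose by 0.66 (log2, SE 0.12, adjusted p = 0.00480, edgeR). IFI35, an interferon-induced leucine zipper protein (hg19 chr17:41158742-41166473, plus strand), was at 6.70, 7.15 and 6.21 CPM in parental and 14.4, 11.3 and 11.5 CPM in NF1 mutant cells, and rose by 0.93 (SE 0.20, adjusted p = 0.0103, edgeR). For both genes every NF1 mutant library was above every parental library in DMSO, and likewise under VT107. GBP1 (hg19 chr1:89518002-89531043, minus strand) fell from 9.01, 9.39 and 3.93 CPM to 2.19, 0.883 and 1.25 CPM, or from 43 to 126 counts a library to 4 to 12 counts. Its log2 fold change of −2.28 (SE 0.45, adjusted p = 0.00718, edgeR) was the largest in size among the members tested in this comparison. SP100 (hg19 chr2:231280657-231408805, plus strand) was at 113, 110.5 and 72.5 CPM in parental cells and 48.1, 48.8 and 64.2 CPM in NF1 mutant cells (−0.84, SE 0.19, adjusted p = 0.0120, edgeR). The groups did not overlap, although parental number 3 came close to the highest NF1 mutant library for SP100.

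Of 4 MHC class I chains tested, 2 fell in NF1 mutant cells and the other two had negative fold changes (median −0.49). B2M, the light chain shared by all class I molecules (hg19 chr15:45003675-45011075, plus strand), was at 1016, 975 and 1604 CPM in parental cells and 599.6, 582 and 678 CPM in NF1 mutant cells, and fell by 0.92 on the log2 scale (SE 0.20, adjusted p = 0.0107, edgeR). HLA-C, a classical heavy chain (hg19 chr6:31236526-31239907, minus strand), was at 62.2, 65.8 and 60.4 CPM against 44.1, 43.7 and 46.1 CPM (−0.46, SE 0.12, adjusted p = 0.0247, edgeR). HLA-B, another classical heavy chain, had −0.34 (SE 0.13, adjusted p = 0.0933, edgeR) and HLA-E, which inhibits natural killer cells, −0.52 (SE 0.20, adjusted p = 0.0883, edgeR). Without parental number 3, B2M, HLA-C, HLA-E and HLA-B all fell, by 0.64, 0.48, 0.27 and 0.23 on the log2 scale, in a fit that called 50.9% of all genes. HLA-F, a nonclassical chain, was below the filter with 2 to 7 counts in the NF1 mutant DMSO libraries.

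Of 5 peptide loading and immunoproteasome genes tested, 1 rose and 0 fell. PSMB9 (hg19 chr6:32811913-32847364, plus strand) was at 19.1, 17.1 and 31.0 CPM in parental and 37.3, 35.1 and 38.1 CPM in NF1 mutant cells, and rose by 0.75 (log2, SE 0.24, adjusted p = 0.0496, edgeR). TAP1, which starts next to it, was at 22.0, 15.8 and 18.9 CPM against 12.9, 15.5 and 18.3 CPM (−0.25, SE 0.21, adjusted p = 0.407, edgeR). PSMB8, the neighboring immunoproteasome subunit, was at 34.1, 36.4 and 40.3 CPM against 35.0, 28.7 and 24.6 CPM (−0.29, SE 0.18, adjusted p = 0.258, edgeR). The span of PSMB9 overlaps TAP1 and PSMB8 on the opposite strand, which held means of 155 and 284 counts a library, so reads of these genes are told apart only where strand was used. A gene on the same strand also overlaps PSMB9 and held a mean of 62 counts, so the level of PSMB9 is uncertain. TAPBP was at 62.1, 58.6 and 116 CPM in parental and 82.7, 76.6 and 78.5 CPM in NF1 mutant cells (0.03, SE 0.26). Without parental number 3 it was called, at 0.44 (SE 0.10, adjusted p = 0.00121, edgeR). PSMB10, the third immunoproteasome subunit, had −0.04 with all libraries and 0.13 without number 3, and passed in neither fit.

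**Figure D4:**
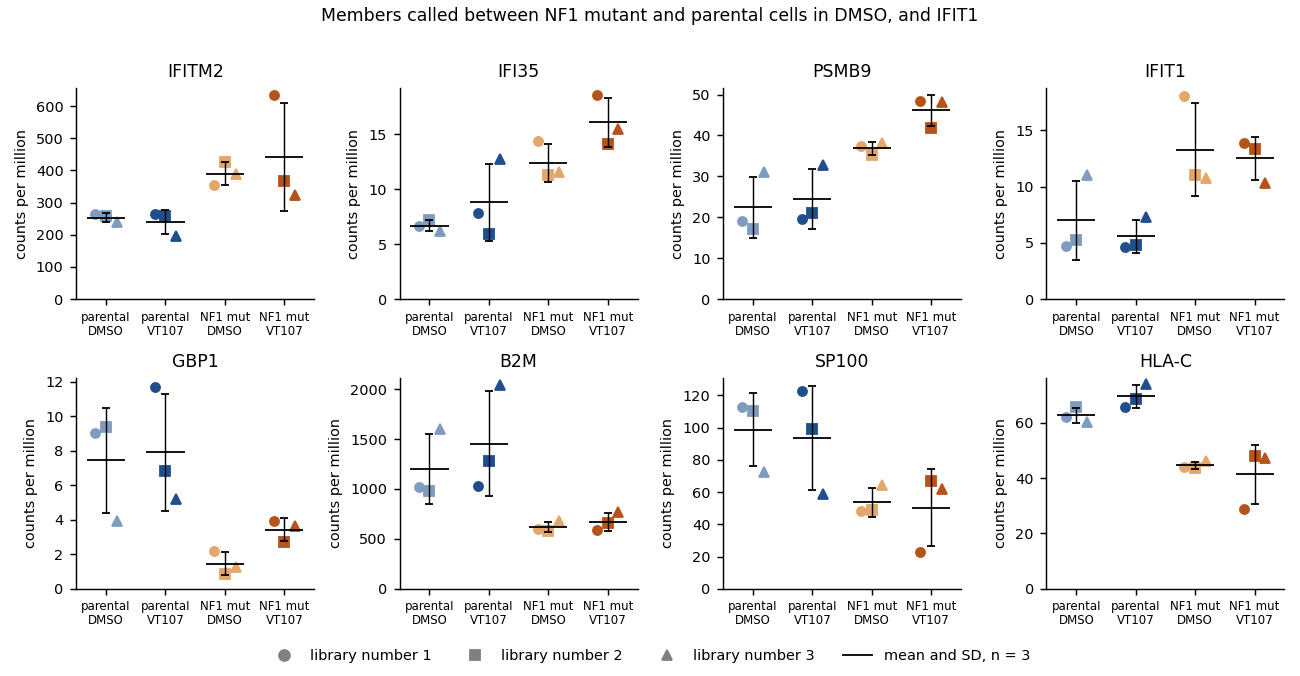
CPM of the 7 members called between genotypes in DMSO, and of IFIT1, in the 12 libraries (marker shape gives the library number, line and bar the mean and SD, n = 3 per group, y axes start at 0). IFITM2, IFI35 and PSMB9 are higher and GBP1, B2M, SP100 and HLA-C lower in all NF1 mutant DMSO libraries than in all parental DMSO libraries, and parental number 3 lies apart from its group for PSMB9, IFIT1, GBP1, B2M and SP100.

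The count of members called in DMSO changed with the parental number 3 library. With parental DMSO number 3 left out, 18 of 36 members passed (50%), against 6409 of 12585 genes (50.9%), which is close to the share of all genes. All 7 earlier members were still called and 11 were added, giving 10 that rose and 8 that fell. Of the 36 members, 32 had the same sign in both fits. IFIT1, an antiviral protein that binds foreign RNA ends, had 4.71, 5.29 and 11.0 CPM in parental cells and 18.0, 11.0 and 10.8 CPM in NF1 mutant cells. Its log2 fold change was 0.96 (SE 0.38, adjusted p = 0.0887, edgeR) with all libraries and 1.47 (SE 0.24, adjusted p = 3.46e-05, edgeR) without number 3. IFI6 went from 0.28 to 0.89, MX1 from 0.52 to 0.77 and IFI27 from −0.12 to 0.50, and all 3 were called without number 3. The other 7 added members were TAPBP, NLRC5 and IFITM3, which rose, and DDX58, HLA-B, HLA-E and GBP3, which fell. ISG15 (0.02 and 0.50) and IFIT3 (−0.52 and 0.14) were called in neither fit. The 4 members whose sign differed between the fits were IFIT3, IFI27, OAS1 and PSMB10. IFIT1, IFI6, MX1 and IFI27 were also called by voomWithQualityWeights with all libraries kept, and IFIT1 without the filter on low counts (adjusted p = 0.0488, edgeR). The part of the fit and the part of that library in these calls were not tested. The members' share called was near that of all genes with voomWithQualityWeights (19 of 36, 52.8% against 52.5%) and without number 3 in the blocked fit (17 of 36, 47.2% against 48.5%). It was below it in the joint fit of all 4 groups (1 of 32, 3.12% against 8.42%).

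**Figure D5:**
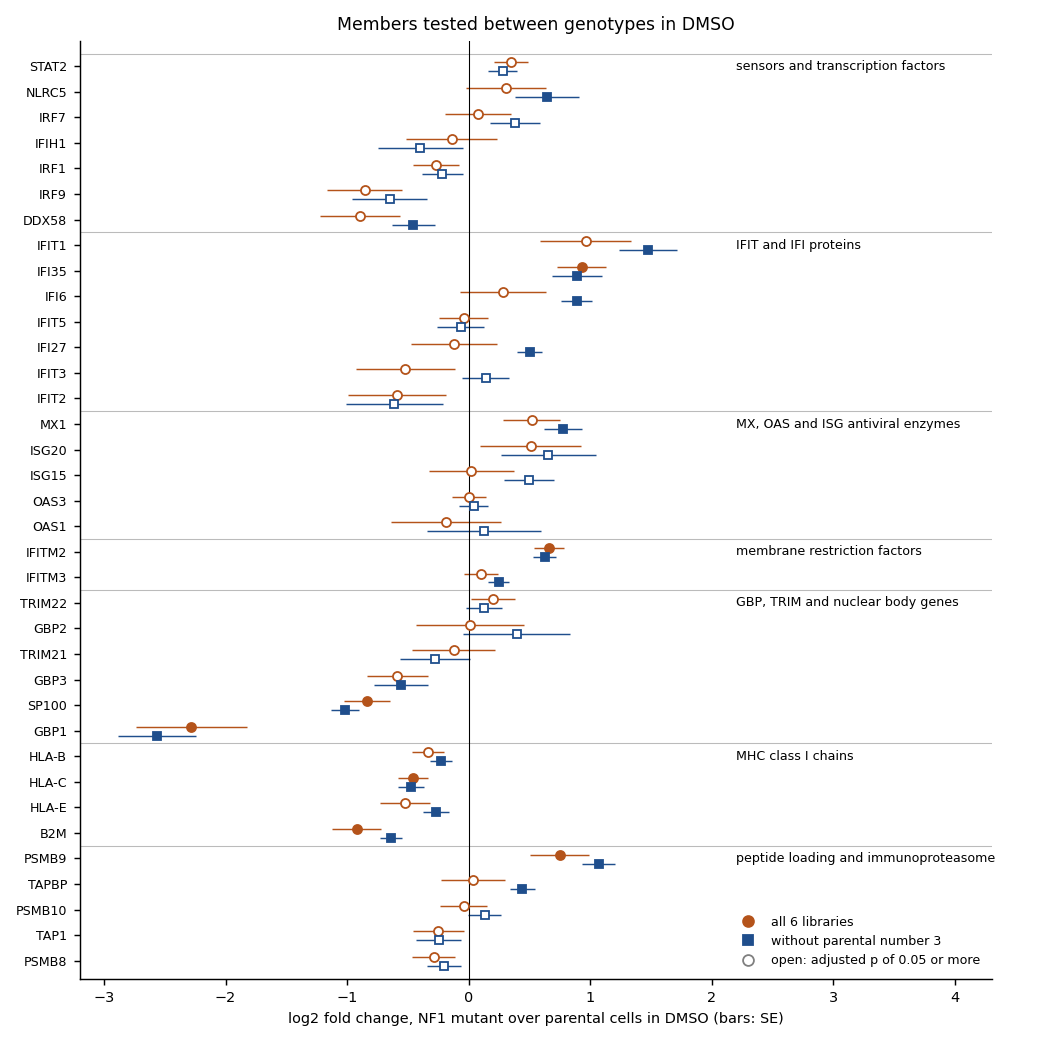
Log2 fold change of NF1 mutant over parental cells in DMSO with its SE for the 36 members tested, by role, with all 6 libraries (circles) and without parental number 3 (squares), filled where the adjusted p was under 0.05. The 7 filled circles include GBP1 at −2.28 and IFI35 at 0.93, 18 squares are filled, and IFIT1, IFI6, IFI27 and MX1 are filled only as squares.

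GBP1 was called in all 13 alternatives that tested it, IFITM2 in 13 of 14, IFI35 in 12, and B2M and SP100 in 11 each, whereas PSMB9 and HLA-C were called in 6 of 14. Leaving out NF1 mutant DMSO number 1 left IFITM2 and GBP1 as the only members called, among 14.2% of all genes. With the replicate number as a block, which does not pair libraries between genotypes, 2986 genes (23.9%) and 7 members were called, with DDX58 (−0.81, SE 0.22, adjusted p = 0.0376, edgeR) in place of HLA-C (adjusted p = 0.0605, edgeR). DDX58 was at 17.0, 17.4 and 35.2 CPM in parental and 10.4, 11.5 and 15.0 CPM in NF1 mutant cells, and had −0.89 (SE 0.33, adjusted p = 0.0750, edgeR) without the block and −0.46 (SE 0.18, adjusted p = 0.0381, edgeR) without parental number 3. IRF9 was at 5.04, 3.80 and 6.30 CPM in parental and 2.73, 2.65 and 2.76 CPM in NF1 mutant cells (−0.86, SE 0.31, adjusted p = 0.0684, edgeR), and its groups did not overlap. An overlapping gene on the same strand held a mean of 160 counts, so the level of IRF9 is uncertain.

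Other genes of the pathway were compared in the same fit. Of 8 receptor and kinase genes tested, 0 rose and 2 fell, namely JAK1 (−0.95, SE 0.15, adjusted p = 0.00235, edgeR), the kinase shared by all interferon receptors, and IL10RB (−0.96), a subunit of the interferon lambda receptor. Of 11 nucleic acid sensing genes, 0 rose and 2 fell, IRF3 (−0.99) and MB21D1 (−0.87), which encodes the DNA sensor cGAS. Of 25 further interferon-stimulated genes, 0 rose and 4 fell: PARP9 (−1.19), RNF213 (−1.13), SAMHD1 (−1.31) and LGALS3BP (−0.62). All of these shares, 25%, 18.2% and 16%, lay below the 27.4% of all genes. Of 12 further MHC class I assembly genes, 4 rose and 2 fell (50%), with PSMB5 and PSMB6, the constitutive proteasome subunits, at 0.57 and 0.48, and PDIA3, a chaperone of the peptide loading complex, at −2.03 (SE 0.18, adjusted p = 0.000188, edgeR). Of 4 feedback inhibitors and 3 MHC class II genes tested, 0 were called.

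Of 14 NF-kB and inflammatory genes tested, 0 rose and 7 fell (50%), with a median of −1.10 (log2), beside 27.4% of all genes called in that fit. Without parental number 3 there were 8 of 14 that fell (57.1%), with a median of −0.76, beside 50.9% of all genes called. BIRC3, an NF-kB target that blocks cell death, was at 29.7, 31.2 and 39.1 CPM in parental and 5.47, 1.32 and 5.27 CPM in NF1 mutant cells (−3.01, SE 0.37, adjusted p = 0.000862, edgeR). ICAM1, an adhesion molecule induced by NF-kB and by interferon gamma, had −2.26 and NFKB2, an NF-kB subunit, −1.91. The part of these genes in the members' values was not tested. Of 3 leukocyte markers tested, 1 rose (ARHGDIB, 0.64).

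The members that did not pass in DMSO included the core antiviral and signaling genes. STAT2 was at 40.9, 42.4 and 35.3 CPM in parental and 52.3, 49.5 and 44.9 CPM in NF1 mutant cells (0.34, SE 0.14, adjusted p = 0.0994, edgeR), without overlap. MX1 was at 14.2, 13.0 and 21.1 CPM against 22.8, 24.1 and 20.6 CPM (0.52, SE 0.23, adjusted p = 0.130, edgeR), and the parental number 3 library lay among the NF1 mutant ones. IFITM3 was at 350.4, 368 and 462 CPM against 410.5, 406.5 and 422 CPM (0.10, SE 0.14). For IFITM3 the parental libraries spanned the whole range of the mutant ones, and without parental number 3 it was called, at 0.25 (SE 0.09, adjusted p = 0.0226, edgeR).

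IRF1 was at 17.7, 22.5 and 22.2 CPM in parental and 17.1, 14.4 and 19.1 CPM in NF1 mutant cells (−0.27, SE 0.19). NLRC5 was at 3.64, 5.59 and 8.22 CPM in parental cells against 6.74, 6.62 and 7.77 CPM (0.31, SE 0.33). Both genes overlapped between genotypes, and without parental number 3 NLRC5 was called, at 0.64 (SE 0.26, adjusted p = 0.0486, edgeR). Among the lower members, OAS1 had 11 to 18 counts in parental and 3 to 6 counts in NF1 mutant libraries (−0.19, SE 0.46). OAS3, another oligoadenylate synthetase, was at 37.1, 37.9 and 39.6 CPM in parental and 35.2, 37.1 and 40.1 CPM in NF1 mutant cells (0.01, SE 0.14), so that both the spread and the difference were small. GBP3, a relative of GBP1, had −0.59 (SE 0.25, adjusted p = 0.112, edgeR) and −0.56 (SE 0.22, adjusted p = 0.0426, edgeR) without parental number 3. TRIM22 and TRIM21, ubiquitin ligases with antiviral roles, had 0.20 and −0.12 with all libraries, and TRIM21 −0.28 without number 3, with neither called.

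In DMSO 10 members were not tested: IFI44, IFI44L, MX2, OAS2, OASL, HLA-F, TAP2, IFITM1, BST2 and XAF1. MX2, a GTPase that restricts viruses at the nuclear pore, had 13, 28 and 50 counts in parental and 4, 2 and 2 counts in NF1 mutant libraries. XAF1 had 3, 0 and 1 counts and OAS2 2, 2 and 0 counts in NF1 mutant libraries. These genes were near the detection limit in NF1 mutant cells, and no difference was claimed from them.

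Under VT107 the comparison of genotypes uses other libraries than the one in DMSO, whereas each VT107 comparison shares its DMSO libraries with the genotype comparison in DMSO. Of 33 members tested, 0 were called by edgeR, as were 0 of 11654 genes (0%), while 8 members and 1945 genes had an unadjusted p under 0.05. In this comparison DESeq2 called 1 member, IFIT1, at 1.32, and 5.85% of all genes, voomWithQualityWeights called 11 of 33 members (33.3%) and 31.1% of all genes, and the joint fit of all 4 groups called 3 of 32 members (9.38%) and 11.3% of all genes. After the values had been seen, the comparison was repeated without the 3 libraries that stood apart, of which parental VT107 number 3 and NF1 mutant VT107 number 1 belong to it. Then 12 of 36 members (33.3%) and 3846 of 12702 genes (30.3%) were called, so the members' share was near that of all genes. IFIT1 was at 4.65, 4.83 and 7.30 CPM in parental and 13.9, 13.3 and 10.3 CPM in NF1 mutant cells under VT107, without overlap. B2M was at 1034, 1282 and 2042 CPM against 588, 661 and 766 CPM, also without overlap, and SP100 was at 123, 99.0 and 58.6 CPM against 22.7, 66.6 and 61.8 CPM, where parental number 3 lay inside the mutant range. The 7 that rose were PSMB9 (1.07), IFI6 (0.80), IFIT1 (1.26), IFI35 (1.04), IRF7 (0.88), TAPBP (0.56) and NLRC5 (0.94), and the 5 that fell were SP100 (−0.85), GBP1 (−1.62), B2M (−0.79), HLA-C (−0.58) and IRF9 (−1.12). IRF7, a transcription factor that amplifies interferon production, and IRF9 were the members of this list called in DMSO neither with all libraries nor without parental number 3. The other 10 were called with the same sign in DMSO without parental number 3. Among these, PSMB9, IFI35, SP100, GBP1, B2M and HLA-C were also called with all libraries. They are 10 of the 12 called under VT107 and 10 of the 18 called in DMSO. The overlap over all genes is not given beside this count. These fits called 30.3% of all genes under VT107 and 50.9% in DMSO, so the overlap is not read as a result about the members.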

How the data were processed

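RNA was measured in 12 H2052 libraries in 4 groups of 3. Per the labels, polyA RNA was extracted with Trizol, reads were demultiplexed with bcl2fastq 2.20.0.422, and the build was hg19. The sources used here do not give the aligner, counter, annotation, library kit or strand setting. The authors deposited raw counts per gene, with no normalization, in a table of 31017 rows. The other deposited tables, which also hold the authors' own fold changes and p-values, were not used. Counts of 63 repeated gene IDs were summed, which gave 30954 IDs, and 16 siRNA columns matched no described sample and were left out. Groups came from the sample labels. The labels do not say that the 3 libraries of a group came from separate cultures (the study calls them biological replicates), so p-values measure the spread between these libraries.

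A gene was tested where all libraries compared had 0.5 CPM or more, with edgeR 4.0.16 in R 4.3.3 (TMM, quasi-likelihood, two-sided, Benjamini-Hochberg over all genes tested, threshold 0.05). SE is the log2 fold change divided by the root of the F statistic. CPM in the text is the count scaled to the library's total. DESeq2 1.42.0, limma 3.58.1 (voomWithQualityWeights), other filters and scalings, a replicate block, a joint fit of all groups and left-out libraries were alternatives. The block is meant for same-numbered libraries that deviate together. Their correlations were 0.542 to 0.829 between parental DMSO and VT107, but −0.224 to 0.165 in NF1 mutant cells. Between genotypes they were −0.124 to 0.112 in DMSO and −0.294 to 0.344 under VT107. In parental cells the unmatched numbers 1 and 2 correlated alike (0.562 and 0.656). Only number 3 stood apart, at 0.829 against −0.754 to −0.63 with the other numbers, so a pairing of numbers 1 and 2 is not shown. Only the main edgeR fit was tried on simulated counts, for genotypes in DMSO and for VT107 in parental cells. The simulation held no library that stood apart, so it does not cover that feature of these data.

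Members, gene lists and tests were chosen with earlier results of these data known. Named genes were those called in at least 1 comparison with or without the block, with a fixed list of 20 members and, for other lists, up to 4 called genes. Low counts limit precision, since counting error alone is large below about 10 counts. Promoter windows came from RefSeq (GRCh38.p14), and DDX58 was matched as RIGI. These coordinates and those of the files belong to different builds.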

Additional observations from a re-analysis of the deposited data

How the results depend on the processing

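The number of members called was 0 with VT107 in parental cells, with VT107 in NF1 mutant cells and for the difference between these responses under every alternative run, and leaving out each library in turn gave 0 to 0. The main fits called 0 of 12891, 0 of 11605 and 0 of 11432 genes. The alternatives whose share is given above called 0.233% to 1.67% of all genes. These counts of 0 are therefore no result about the members in particular. Between genotypes in DMSO (7 of 36 members), voomWithQualityWeights called 19 of 36 (52.8%, against 52.5% of all genes), the fit of all 4 groups together 1 of 32 (3.12% against 8.42%), leaving out parental number 3 18 of 36 (50% against 50.9%), and leaving it out with the replicate block 17 (47.2% against 48.5%). The other alternatives stayed within 1.5 times of 7, but the share of all genes is not given for most of them. This is therefore not read as a result about the members. The replicate block, which does not pair these libraries, gave 7, beside 23.9% of all genes. Leaving out each library in turn gave 2 (without NF1 mutant DMSO number 1, 5.41% against 14.2%) to 18 (without parental DMSO number 3), and 3 without NF1 mutant DMSO number 2 (7.89% against 14.8%). IFI27 ran from −0.38 to 0.50 when each library was left out, and turned from −0.12 to 0.47 with voomWithQualityWeights, 0.50 without parental number 3 and 0.46 without it and with the replicate block. Between genotypes under VT107 (0 members), DESeq2 called 1 of 33 (3.03% against 5.85% of all genes), voomWithQualityWeights 11 (33.3% against 31.1%), the fit of all 4 groups 3 of 32 (9.38% against 11.3%), and leaving out parental number 3 and NF1 mutant VT107 number 1, chosen after seeing the data, 12 of 36 (33.3% against 30.3%). The cause of these shifts was not tested. The blocked fit of VT107 in parental cells changed no call of a member.

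The NF1 mutant libraries held fewer counts than the parental ones, which limits members such as GBP1 (4 to 12 counts in DMSO), and a gene that misses the threshold is not shown to be unchanged.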
